A study of Mus musculus with 6 samples.

Results

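The genes described here are 8 regulators of epithelial identity and of epithelial splicing: Esrp1, Esrp2, Grhl1, Grhl2, Grhl3, Ovol1, Ovol2 and Elf3. They were chosen by name, and all 8 were found among the 31319 genes of the deposited table. Polyadenylated RNA came from the main olfactory epithelium, the nasal lining that carries the odour-sensing neurons, of male C57BL/6 mice aged 5 months. The 3 libraries labelled miR-200b/a KD (here KD) carried a knockdown of the microRNAs miR-200b and miR-200a, recorded as a genotype or variation, and the 3 labelled NC are called controls in the column headers. How the knockdown was made, which cells it reached and what the NC mice received are not stated in the labels. Nothing states that each library is a separate mouse, so p-values measure the spread between libraries, which may be technical.

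Esrp1 and Esrp2 are RNA-binding proteins that keep the epithelial form of many transcripts, for example of the growth factor receptor gene Fgfr2. The Grainyhead-like factors Grhl1, Grhl2 and Grhl3 switch on junction and barrier genes, the zinc finger factors Ovol1 and Ovol2 hold back mesenchymal genes, and Elf3 is an ETS factor of differentiating and inflamed epithelia. The miR-200 family is best known for silencing Zeb1 and Zeb2, repressors that act on E-cadherin and, in many epithelial cells, on Esrp1, Grhl2 and Ovol2. The comparison of KD with NC asks whether transcripts of these regulators differ when miR-200b and miR-200a are lowered.

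The seeds of the lowered microRNAs, bases 2 to 8 in capitals, are shown because they set which transcripts the microRNAs could pair with. The sequences are from RefSeq (GRCm38.p6), at chr4:156055685-156055706 for miR-200b-3p and chr4:156054911-156054932 for miR-200a-3p, both on the minus strand.
miR-200b-3p: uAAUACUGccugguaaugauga
miR-200a-3p: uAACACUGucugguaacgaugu
In the longest annotated 3′ UTR of each regulator (GENCODE), a match to the miR-200b seed (CAGTATT in DNA letters) was present in 0 of 8 and a match to the miR-200a seed (CAGTGTT) in Grhl1 and Grhl2, once each. Among 15820 tested genes with such a UTR, 15.6% held the first match and 20.6% the second. Zeb1 and Zeb2 each held 5 of the first and 4 of the second. The 2 matches in the regulators are shown with 11 bases on each side, the match in capitals. They lie at bases 477 to 483 of 1459 in Grhl1 and at bases 2337 to 2343 of 2718 in Grhl2.
Grhl1: cacctctcctcCAGTGTTtactaaatagg
Grhl2: caaaacttcctCAGTGTTtagaaattgaa
A match describes the letters only, and binding was not measured.

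Total counts per library ran from 15704791 to 17618540. The libraries differed in markers of several cell types, and the part of these differences in the values below was not tested. The 20 mature olfactory neuron markers all had counts in every library, but in KD-2 some had as few as 3 (Slc17a6, Rtp2 and Gng13), and Gnb1 gave 305 CPM of that library's sum. Their summed counts per 1000000 (CPM) were 520 in KD-2 against 5646 and 6856 in the other KD libraries and 11317 to 18410 in NC. Markers of B and plasma cells (12 genes) summed to 1427 CPM in NC-1 and to between 5166 and 9205 CPM in the other 5 libraries. In that sum Jchain alone gave 994 CPM in NC-1 and between 3577 and 6104 CPM elsewhere. Markers of myeloid and T cells (13 genes) summed to 108 CPM in NC-1 and to between 342 and 3393 CPM elsewhere. Of these S100a9 alone ran from 8.33 CPM in NC-1 to 2027 CPM in KD-2. Horizontal basal cell markers (12 genes, 1231 to 1925 CPM in KD, 428 to 939 CPM in NC) and respiratory ciliated and secretory markers (13 genes, 5840 to 6158 CPM in KD, 2804 to 4046 CPM in NC, with 1 marker, Scgb1a1, at 0 in at least 1 library) separated the groups. In the respiratory sum the mucin gene Muc5b alone gave 3208, 3613 and 2658 CPM in KD and 950, 1668 and 1625 CPM in NC. Of the 12 respiratory genes tested 6 were higher and 0 lower without overlap, against 15.3% and 18.6% of all tested genes. Scgb1c1 and the ciliated markers Tubb4b and Tekt1 had log2 fold changes of KD over NC below 0. The summed sustentacular markers, from the supporting cells of the olfactory epithelium, overlapped (14522 to 15253 CPM in KD, 14740 to 15471 CPM in NC). Of the 12 sustentacular genes, however, 4 were higher and 5 lower without overlap, against the same 15.3% and 18.6%. In KD-2 the sustentacular cytochrome gene Cyp2g1 had 29.5 CPM against 1544 to 3692 CPM elsewhere, while Reg3g had 7816 CPM, the most of any library. In tissue RNA more cells of a type and more RNA per cell cannot be told apart.

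None of the 8 regulators passed the threshold of an adjusted p of 0.05 in edgeR's quasi-likelihood test, and of the 18444 genes tested 0% passed in either direction. All 8 were among the genes tested, with edgeR adjusted p from 0.28 to 0.88. DESeq2 called 0 of the 8 (adjusted p from 0.18 to 0.97), against 0.821% of genes called higher and 1.07% called lower. With limma-voom 0 of the 8 passed, and 0 of all tested genes passed in either direction. At an unadjusted edgeR p under 0.05 there was 1, Grhl2, on the higher side, where 8.7% of tested genes also fell, and 0 on the lower side (9.25%), or 17.9% of genes in either direction. In the authors' deposited table Grhl2 and Elf3 had the smallest unadjusted p of the 8, at 0.028 and 0.039.

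By direction, 7 of the 8 fitted log2 fold changes of KD over NC lay above 0 and 1, that of Grhl1, lay below. Their median was 0.39, and over all tested genes the median was 0.0072 with 50.6% above 0 and 49.4% below. In 3 of the 8, Esrp2, Grhl2 and Ovol1, every KD library exceeded every NC library, which 15.3% of tested genes also did, and in 0 every KD library was below, against 18.6% (33.9% of tested genes in either direction). This count depended on the scaling and on single libraries. Under another scaling of the libraries, library totals in place of TMM, it fell to 2, and Grhl2 was the gene lost. Leaving out libraries can only keep or raise it, for the regulators as for all genes. Without KD-3 it was 5 higher, with Grhl3 and Elf3 added (24% of all tested genes higher, 49.4% in either direction). Without NC-3 it was 5 higher and 1 lower (Grhl1), where the share of all tested genes without overlap was 55.5%. With KD-2 and NC-1 both left out it was 5 higher, now with Esrp1 and Ovol2 added (20.4% of all tested genes higher, 44.4% in either direction).

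**Figure D1:**
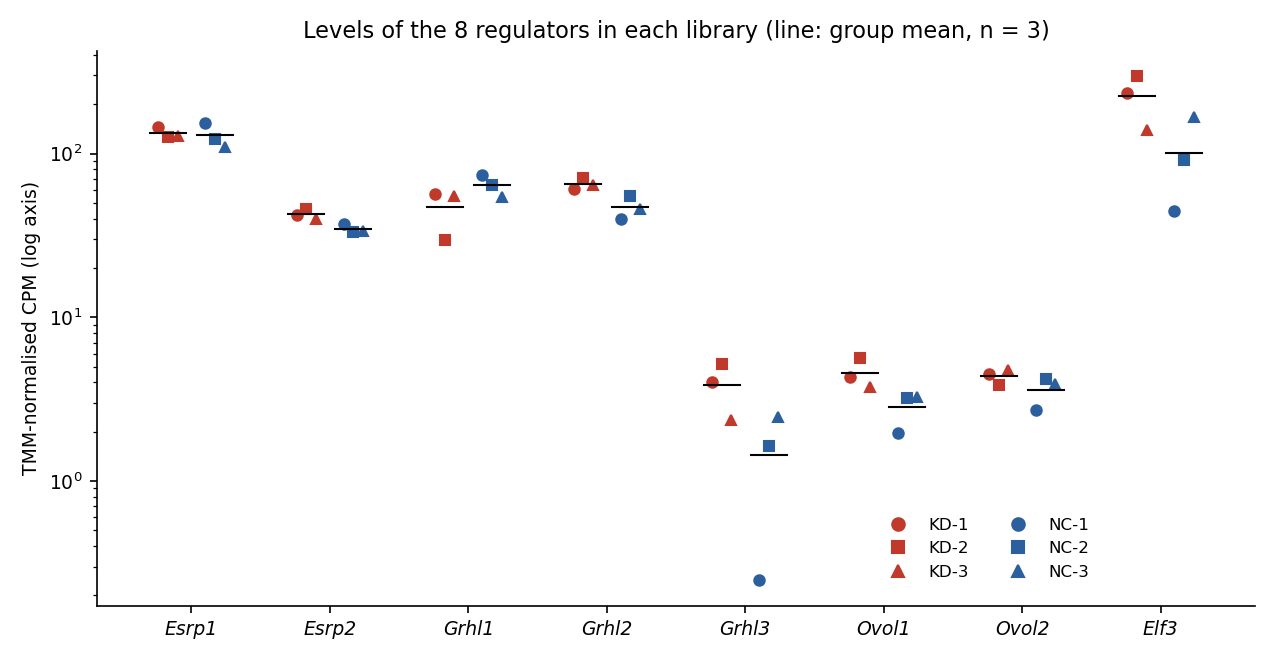
TMM-normalised CPM (log axis) of each regulator in each library, KD in red and NC in blue, a line marking the mean of each group (n = 3). Esrp2, Grhl2 and Ovol1 have every KD point above every NC point, KD-2 is the low point of Grhl1 at 29.7 CPM, and NC-1 is the low point of Grhl3 (0.247 CPM) and Elf3 (44.5 CPM).

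Per length of exon, the levels in NC followed the order Elf3, Esrp1, Grhl1, Esrp2, Grhl2, Ovol2, Ovol1 and Grhl3. Elf3 stood at 45.3 ± 27.7 CPM per 1000 bases (SD, n = 3) and Esrp1 at 20.5 ± 3.69, above 95% and 87% of the levels per length, respectively, of the tested genes. These neighbours did not differ beyond their spread in NC, since Elf3 was above Esrp1 in 2 of the 3 libraries. In KD Elf3 stood clear of Esrp1, at 101 ± 36.1 against 21.1 ± 1.80 CPM per 1000 bases. Grhl1 (11.6 ± 1.86), Esrp2 (7.97 ± 0.495) and Grhl2 (5.45 ± 0.860) came next and did not overlap in NC, whereas in KD Grhl1 (8.53 ± 2.74) overlapped Esrp2 (9.79 ± 0.676). Ovol2 stood at 1.71 ± 0.372, Ovol1 at 0.807 ± 0.209 and Grhl3 at 0.520 ± 0.402 CPM per 1000 bases, and the last pair overlapped in both groups. Esrp1, an RNA-binding protein gene, was thus the better expressed of the splicing pair in every library, and the Grainyhead genes spanned the middle and the bottom of the order.

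Esrp1 (ENSMUSG00000040728, a protein-coding gene at chr4:11331933-11386783, build GRCm38) had nearly the same mean in both groups. Its CPM, given here and below in the order of the library numbers, were 146, 126 and 127 for KD, against 155, 123 and 109 for NC. The groups overlapped, and the NC libraries held both the highest and the lowest value. The means were 133 ± 11.3 and 129 ± 23.2 CPM (SD, n = 3 each). The log2 fold change was 0.05 (SE 0.179, edgeR adjusted p = 0.88), and its sign turned negative with library totals in place of TMM (-0.095), which also moved the median of all genes to -0.14. Between the highest and the lowest library Esrp1 differed 1.41-fold.

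Esrp2 (ENSMUSG00000084128, chr8:106130319-106136974), the partner that recognises the same kind of RNA motif, stood at 42.0, 45.7 and 39.9 CPM in KD and at 37.1, 33.2 and 33.6 CPM in NC. All KD values exceeded all NC values, by a small margin. The fold change was 1.23 (1.13 to 1.34 for 1 SE on either side; log2 0.30, SE 0.123, edgeR adjusted p = 0.28). The gene overlaps Nfatc3 and 1810019D21Rik on the opposite strand, and no source states whether the counting used strand, so reads from stretches they share cannot be told apart. The same limit holds for Esrp1, Grhl2, Ovol1, Ovol2 and Elf3, which also overlap annotated genes on the opposite strand.

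The exons that Esrp1 and Esrp2 act on were not measured, because the table gives 1 count per gene. At the level of whole genes, 18 genes known to hold Esrp-regulated exons lay 11 above 0 and 7 below, at a median of 0.02 in log2 fold change, and 0 passed the edgeR threshold. Fgfr2, whose epithelial IIIb exon is the textbook case, had 75.8, 105 and 81.6 CPM in KD and 49.0, 69.4 and 68.9 CPM in NC (log2 fold change 0.48, SE 0.206, adjusted p = 0.28). Cd44, a hyaluronan receptor with many alternative exons, had 221, 295 and 230 CPM against 46.0, 83.3 and 173. Magi1 and Scrib, scaffold proteins of cell junctions and polarity, lay the other way. Magi1 had 53.3, 33.5 and 51.7 CPM in KD and 85.6, 69.0 and 65.2 CPM in NC, and Scrib stood at 113 ± 8.93 against 151 ± 15.1 CPM, with groups that did not overlap.

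Grhl2 (ENSMUSG00000022286, chr15:37233036-37363569), the Grainyhead factor that maintains E-cadherin and claudin expression in many epithelia, had the smallest p of the 8. Its CPM were 61.1, 71.4 and 63.9 in KD and 40.0, 54.8 and 46.1 in NC. All KD libraries were above all NC libraries. The means of 65.5 ± 5.31 and 47.0 ± 7.41 CPM gave a fold change of 1.39 (1.25 to 1.56 for 1 SE on either side), a log2 value of 0.48 (SE 0.160, edgeR adjusted p = 0.28). Without both KD-2 and NC-1 the log2 value was 0.34. With library totals in place of TMM it was 0.32 (edgeR adjusted p = 0.40). On that scale KD-2 lay below NC-2, so the groups overlapped. Grhl2 overlaps 3 annotated genes on the opposite strand, 2 antisense transcripts and 1 pseudogene.

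Grhl1 (ENSMUSG00000020656, chr12:24572283-24617391), a Grainyhead factor known for desmosomal cadherin expression in skin, was the only one of the 8 below 0. Its CPM were 56.9, 29.7 and 55.1 in KD and 74.5, 64.4 and 53.9 in NC. KD-2 was the lowest, and the other KD libraries were both above NC-3. The log2 fold change was -0.44 (SE 0.280, edgeR adjusted p = 0.38), -0.17 without KD-2 and -0.05 with NC-1 left out too. KD-2 is also the library with the lowest sum of mature neuron markers, and with the mean level of those markers as a covariate the value was 0.03 (edgeR adjusted p = 0.99). That covariate itself separated the groups (centred mean log2 CPM 0.10, -4.89 and 0.45 in KD, 1.82, 1.38 and 1.14 in NC). Neuron level and knockdown therefore cannot be told apart in this fit, and the part of neurons was not tested.

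Grhl3 (ENSMUSG00000037188, chr4:135541888-135573630), the factor of skin barrier formation, had the lowest mean level per length in NC. Counts were 69, 68 and 43 in KD and 4, 32 and 44 in NC. The 4 counts in NC-1 have an exact 95% interval of 1.09 to 10.2, which covers counting error only. In CPM the values were 4.03, 5.21 and 2.37 against 0.247, 1.63 and 2.47, so KD-3 and NC-3 overlapped. The log2 fold change of 1.40 (SE 0.757, edgeR adjusted p = 0.33) was 0.91 without NC-1 and 0.66 with KD-2 left out as well.

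Ovol1 (ENSMUSG00000024922, chr19:5549136-5560646), a factor that drives epidermal cells out of the cell cycle, had 4.32, 5.67 and 3.75 CPM in KD and 1.97, 3.22 and 3.25 CPM in NC. The groups did not overlap, but the lowest KD library exceeded the highest NC library narrowly. The fold change was 1.62 (1.29 to 2.04 for 1 SE on either side; log2 0.70, SE 0.334, edgeR adjusted p = 0.30), and the log2 value was 0.34 without both KD-2 and NC-1. Ovol2 (ENSMUSG00000037279, chr2:144305175-144332146), which represses Zeb1 in epithelial cells, had 4.50, 3.83 and 4.80 CPM in KD and 2.71, 4.19 and 3.92 CPM in NC. Its groups overlapped, and NC-1 was the low library (log2 fold change 0.28, SE 0.290, edgeR adjusted p = 0.56; 0.11 without NC-1).

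Elf3 (ENSMUSG00000003051, chr1:135253575-135258568) had, after Grhl3, the widest range of the 8, 6.70-fold between libraries. Its CPM were 235, 298 and 139 in KD and 44.5, 90.8 and 166 in NC. The groups overlapped because NC-3 was above KD-3. The means of 224 ± 80.1 and 100.5 ± 61.4 CPM gave a log2 fold change of 1.16 (SE 0.521, edgeR adjusted p = 0.29), which was 0.80 without NC-1 and 0.56 with KD-2 left out as well.

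**Figure D2:**
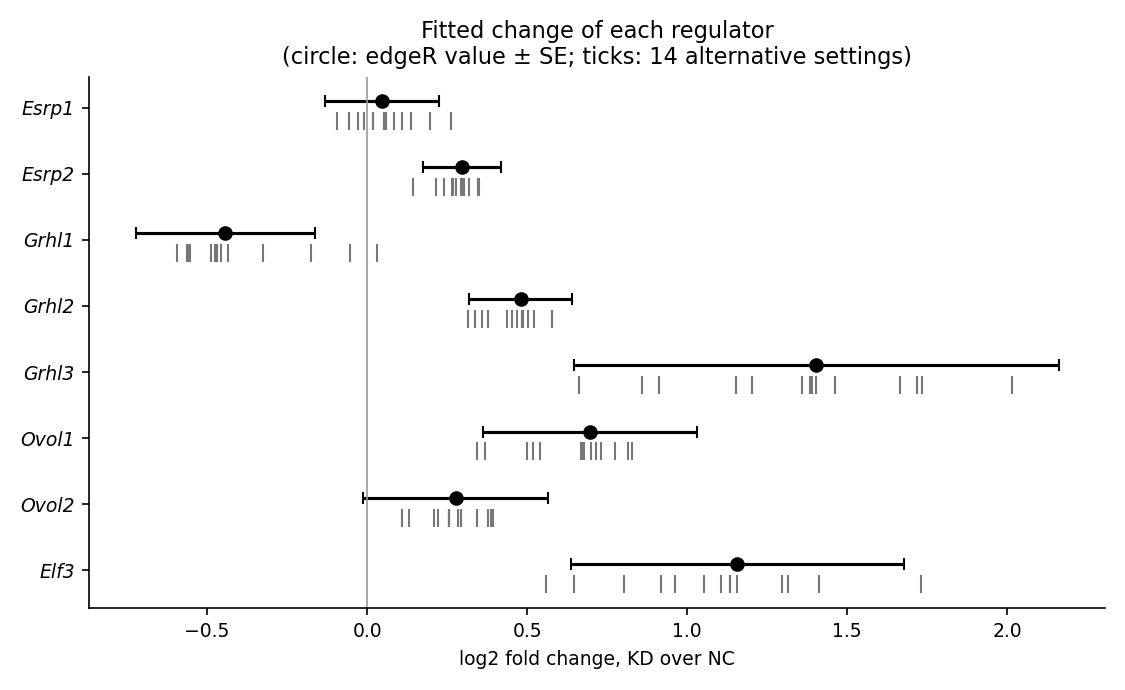
Fitted log2 fold change of KD over NC for each regulator, with the edgeR value and its standard error as a black circle and bar and the values under 14 alternative settings as grey ticks. Esrp2, Grhl2, Grhl3, Ovol1, Ovol2 and Elf3 lie above 0 under every setting drawn, Esrp1 crosses 0, and Grhl1 runs from -0.59 to 0.03.

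Grhl3 and Elf3 ranked the 6 libraries in the same order, KD-2 highest, then KD-1, NC-3, KD-3, NC-2 and NC-1. The root mean square difference between their centred log2 CPM profiles was 0.42, because the low value in NC-1 was deeper for Grhl3. The median log2 CPM of the 12 B and plasma cell markers, relative to the NC mean, put the libraries in this order too, at 1.90 in KD-2, 1.30 in KD-1, 0.89 in NC-3, 0.85 in KD-3, 0.58 in NC-2 and -1.46 in NC-1. For the 13 myeloid and T cell markers the values were 1.74, 1.43, 0.87, 1.12, 0.24 and -1.40 in the same sequence of libraries. Such an order was not particular to immune markers. For 20 epithelial adhesion and keratin genes the values in that sequence were 0.69, 0.45, 0.21, 0.27, 0.07 and -0.16. Known Grainyhead targets and other epithelial transcription factors also ranked the libraries as the myeloid and T cell markers did. The part of any cell type in the values of Grhl3 and Elf3 was not tested.

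The promoter windows of this pair are shown because both genes ranked the libraries in the same order. Other pairs of regulators had closer profiles, such as Esrp1 with Esrp2 (0.19). They run from 250 bases before to 50 bases after the start (RefSeq, GRCm38.p6), at chr4:135573583-135573882 for Grhl3 and chr1:135258423-135258722 for Elf3, both on the minus strand. Windows were found for 4 of the 8 genes, Grhl1, Grhl3, Ovol2 and Elf3. Capitals mark the E-box CACCTG, to which Zeb proteins can bind, searched on both strands.
Grhl3: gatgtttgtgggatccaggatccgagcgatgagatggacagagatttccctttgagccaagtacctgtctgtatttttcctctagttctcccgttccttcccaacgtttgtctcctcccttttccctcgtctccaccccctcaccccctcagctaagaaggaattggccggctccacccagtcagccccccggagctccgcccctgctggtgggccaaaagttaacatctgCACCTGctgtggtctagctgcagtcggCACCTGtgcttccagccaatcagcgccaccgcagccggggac
Elf3: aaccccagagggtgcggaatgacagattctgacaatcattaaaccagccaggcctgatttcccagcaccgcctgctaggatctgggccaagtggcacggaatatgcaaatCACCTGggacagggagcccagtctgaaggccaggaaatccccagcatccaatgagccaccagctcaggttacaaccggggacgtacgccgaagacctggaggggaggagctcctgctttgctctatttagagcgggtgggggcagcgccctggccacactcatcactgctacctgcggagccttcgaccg
The E-box occurs 19 bases before and 8 bases after the start in Grhl3 and 140 bases before it in Elf3, and it is not in the windows of Grhl1 and Ovol2. It was present in 20.2% of all 32851 promoter windows of this length. The Grainyhead motif AACCGGTT was in none of the regulators' windows and in 0.146% of all windows.

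Ratios between related genes within a library do not depend on the scaling between libraries. Grhl1 counts per Grhl2 count were 0.930, 0.417 and 0.863 in KD and 1.86, 1.18 and 1.17 in NC. Grhl2 had more counts than Grhl1 in every KD library and fewer in every NC library. The mean log2 ratio was lower by 0.98 in KD (-0.53 ± 0.640 against 0.45 ± 0.384, SD, n = 3 each). A two-sided exact permutation test gave p = 0.1, which is the smallest 3 against 3 libraries allow, and 0.2 after Benjamini-Hochberg adjustment over 4 ratios. Without NC-1 the difference was -0.76 with an exact p = 0.3, and with KD-2 and NC-1 both left out it was -0.39, with the same order of the groups.

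The other ratios overlapped between groups. Esrp2 counts per Esrp1 count were 0.287, 0.363 and 0.313 in KD and 0.240, 0.270 and 0.307 in NC, so Esrp1 had more counts than its partner in every library. Grhl3 counts per Grhl2 count were 0.0663, 0.0735 and 0.0375 in KD and 0.00693, 0.0303 and 0.0541 in NC. Ovol2 counts per Ovol1 count were 1.04, 0.678 and 1.28 in KD and 1.37, 1.30 and 1.21 in NC. Each of these had an exact permutation p = 0.2, and 0.2 after adjustment.

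**Figure D3:**
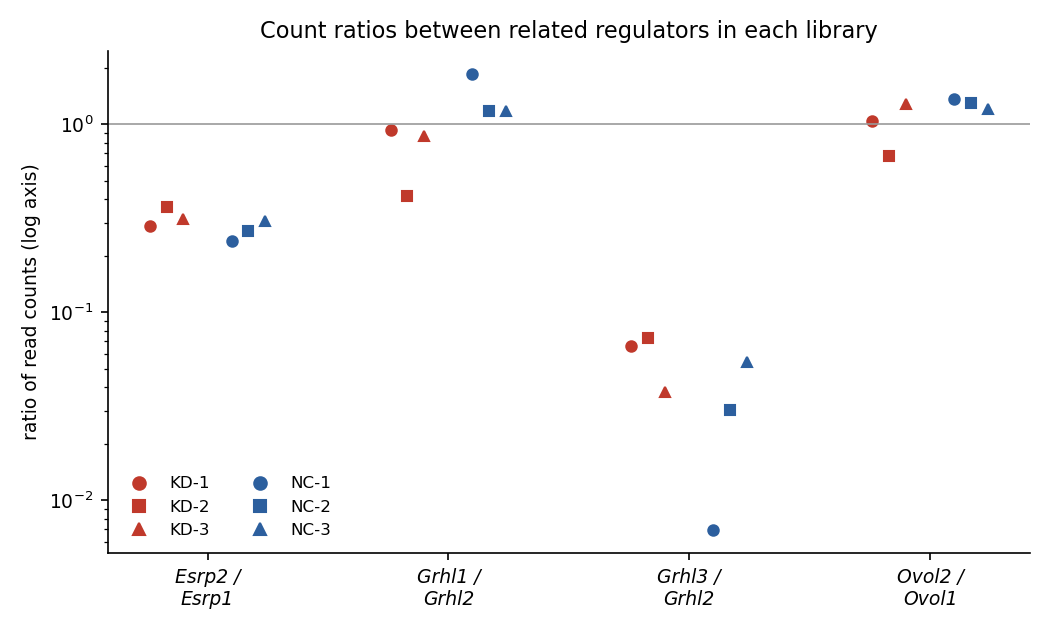
Ratio of read counts (log axis) within each library for 4 pairs of related regulators, KD in red and NC in blue, with a line at a ratio of 1. The Grhl1 to Grhl2 ratio lies below 1 in the 3 KD libraries and above 1 in the 3 NC libraries, and the other ratios overlap between groups. Counts are not divided by exon length, so the line at 1 does not mark equal levels per length.

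Summed over each family, the groups overlapped for the Grainyhead and Esrp genes. The 3 Grainyhead genes together stood at 122, 106 and 121 CPM in KD and 115, 121 and 102 CPM in NC, and the Esrp pair at 188, 172 and 167 against 192, 156 and 143 CPM. The Ovol pair did not overlap, at 8.82, 9.50 and 8.54 against 4.69, 7.41 and 7.18 CPM. Ovol1 alone also separated the groups, as 15.3% of tested genes did on the higher side, while Ovol2 alone overlapped.

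Set against Cdh1 (E-cadherin, the adhesion protein of epithelial cells), 1 of the 8 regulators separated the groups, Grhl1, which was lower. Cdh1 CPM were higher in every KD library, so this scale lowers all KD values, and on it 42.2% of tested genes were lower and 3.21% higher without overlap. This description was added after the data were seen and has no test. Grhl2 had 10.5, 13.8 and 14.5 counts per 100 Cdh1 counts in KD and 12.6, 14.3 and 11.5 in NC. Esrp2 had 7.20, 8.80 and 9.04 against 11.6, 8.64 and 8.36, and Ovol1 0.741, 1.09 and 0.850 against 0.620, 0.839 and 0.809, so the 3 genes whose CPM separated the groups overlapped on this scale. Esrp1 had 25.1, 24.3 and 28.9 against 48.6, 32.0 and 27.2, with the highest value in NC-1. Grhl1 was at 9.75, 5.73 and 12.5 counts per 100 Cdh1 counts in KD and 23.4, 16.8 and 13.4 in NC. Elf3 overlapped, with 43.1 ± 13.2 per 100 Cdh1 counts for KD against 26.3 ± 13.9 for NC (SD, n = 3).

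**Figure D4:**
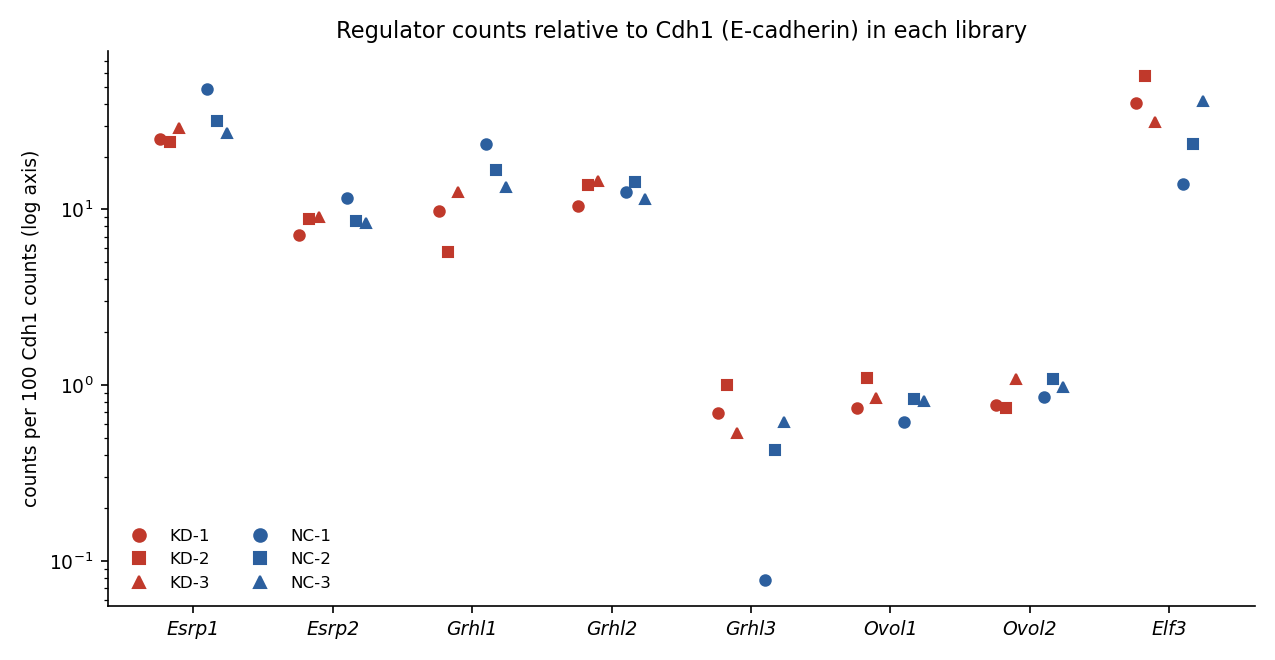
Counts of each regulator per 100 counts of Cdh1 in the same library (log axis), KD in red and NC in blue. Grhl1 has its KD points below its NC points, while Grhl2, Esrp2 and Ovol1 overlap between groups.

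Cdh1 itself had 583, 519 and 441 CPM in KD and 318, 384 and 402 CPM in NC, without overlap (log2 fold change 0.48, SE 0.204, edgeR adjusted p = 0.28). Of 20 epithelial adhesion and keratin genes, 18 lay above 0 and 2 below (median log2 fold change 0.47, 0 past the threshold). In 11 of them every KD library was above every NC library and in 0 below, against 15.3% and 18.6% of all tested genes. Epcam, an epithelial surface protein, stood at 393 ± 50.7 against 286 ± 32.7 CPM, the desmosomal plaque protein gene Dsp at 149 ± 13.1 against 112 ± 5.84, and the simple-epithelium keratin gene Krt8 at 650.3 ± 137 against 379 ± 91.3. Krt19, another such keratin, stood at 507 ± 144 against 184 ± 98.1 CPM, with NC-1 lowest.

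Among 19 tested genes known as Grainyhead targets, 17 lay above 0 and 2 below (median log2 fold change 0.46, 0 past the threshold). Without overlap 9 were higher and 0 lower, against 15.3% and 18.6% of all tested genes. The adhesion gene Nectin4 had 36.5, 35.6 and 35.2 CPM in KD and 21.2, 23.9 and 28.8 CPM in NC. Spint1, a protease inhibitor of epithelial surfaces, stood at 156 ± 36.1 against 78.5 ± 22.6 CPM, and its target protease gene St14 at 300.1 ± 85.6 against 152 ± 55.0 CPM. Several of these genes, among them Cdh1 and Epcam, are also in the adhesion list, so the counts of the lists are not independent.

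The other epithelial transcription factors gave 10 of 12 above 0 (median 0.73, 0 past the threshold). Ehf, the ETS factor closest in kind to Elf3, had 210, 210 and 139 CPM in KD and 97.3, 104 and 99.3 CPM in NC (log2 fold change 0.89, SE 0.201, edgeR adjusted p = 0.28, DESeq2 adjusted p = 0.026). Foxa1, a forkhead factor of glandular and airway epithelia, stood at 177 ± 50.1 against 83.9 ± 31.0 CPM. The ETS factor Elf5 lay the other way, with 61.8, 50.4 and 71.1 CPM in KD and 142, 87.8 and 92.7 CPM in NC. Epithelial ETS genes thus lay on both sides of 0.

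Zeb1, the repressor most often set against Esrp1 and Ovol2, had 25.3, 23.9 and 21.8 CPM in KD and 22.7, 22.9 and 20.2 CPM in NC (log2 fold change 0.11, SE 0.139, edgeR adjusted p = 0.64; -0.045 with library totals). Zeb2 had 58.6, 37.8 and 51.1 against 19.1, 25.6 and 22.2 CPM, without overlap (log2 fold change 1.14, SE 0.210, edgeR adjusted p = 0.28, DESeq2 adjusted p = 0.0081). Of 5 tested repressors of the epithelial state all lay above 0, Snai1 with 29.0 ± 7.48 against 13.3 ± 7.05 CPM among them, and 0 passed the edgeR threshold; Twist1 was at 0.01.

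Other splicing regulators lay mostly on the opposite side from Esrp2. Of 20 tested, 15 were below 0 and 5 above (median log2 fold change -0.88, 0 past the threshold). In 11 every KD library was below every NC library, against 18.6% of all tested genes. In 2 every KD library was above every NC library, against 15.3%. These were Ptbp1 (211 ± 30.3 against 149 ± 17.2 CPM) and Celf2 (42.0 ± 7.35 against 30.3 ± 3.37 CPM). Rbfox2, an RNA-binding protein that acts on many of the exons that Esrp proteins also control, stood at 105 ± 14.2 against 150.4 ± 17.7 CPM. The neuronal regulators Celf4 (10.8 ± 5.38 against 29.1 ± 8.97 CPM) and Ptbp2 (38.5 ± 10.5 against 68.7 ± 19.0 CPM) lay the same way as Rbfox2. In Rbfox2, Celf4 and Ptbp2 KD-2 was lowest, as it was for the mature neuron markers. Those 20 markers were all below 0 (median -1.78). Their part in these values was not tested.

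**Figure D5:**
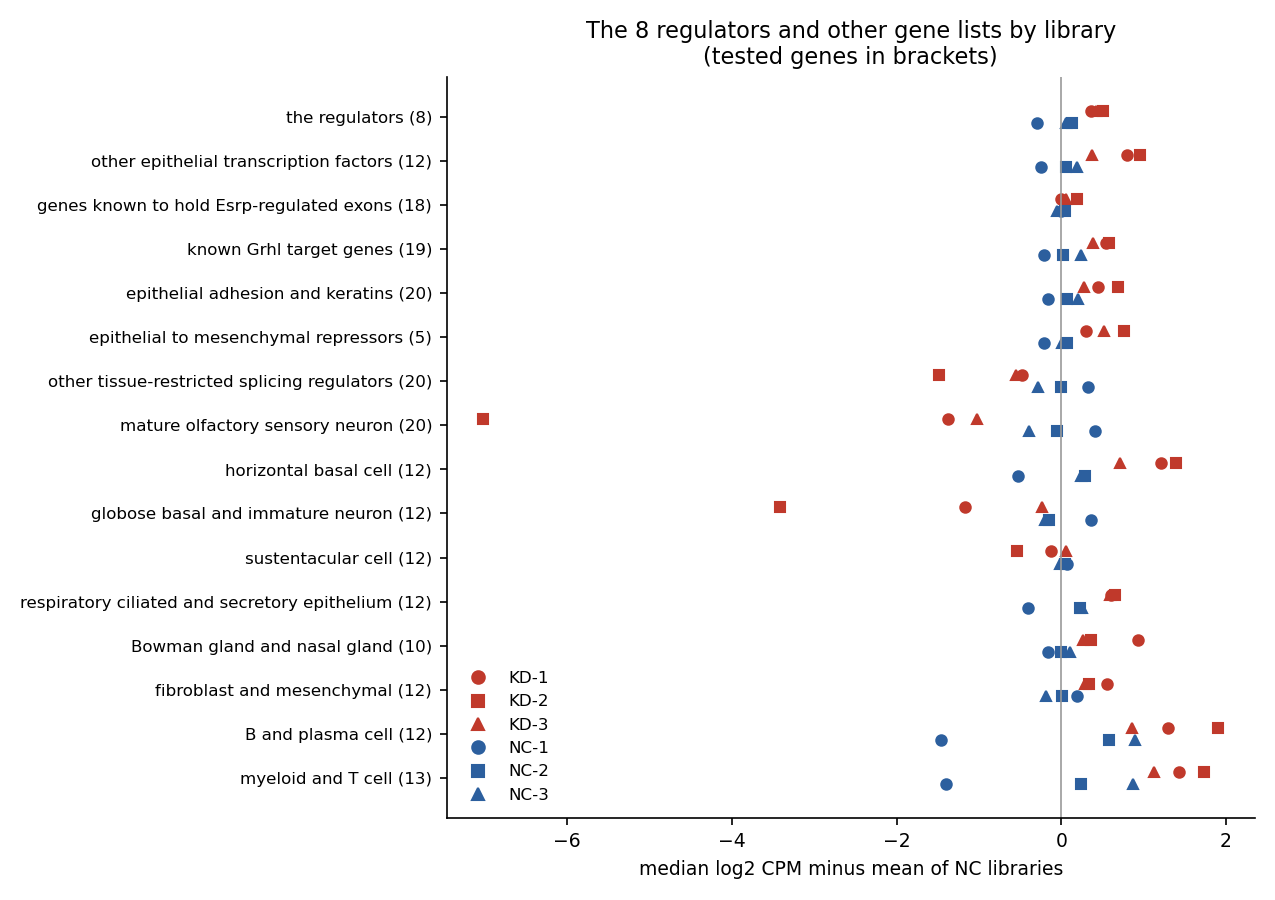
Level of each gene list by library, as the median over its tested genes of the log2 CPM relative to the NC mean, KD in red and NC in blue, with the number of tested genes in brackets. The 8 regulators lie at 0.36, 0.51 and 0.43 in KD-1 to KD-3, KD-2 stands far to the left for mature neurons at -7.02, and NC-1 lies far to the left of the other libraries for the B and plasma cell and the myeloid and T cell lists.

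Likeness of profiles was measured as the root mean square difference between log2 CPM over the 6 libraries, each gene centred on its own mean, among 13377 tested genes with a mean of at least 5 CPM. The closest to Esrp1 were Crebl2 (0.014), Tax1bp1 (0.030) and Polg (0.034). Esrp2 was closest to Mapk14 (0.035), Txlna and Lrp5, Grhl1 to Zfp763 (0.052), Rmdn2 and Nectin3, and Grhl2 to Cav1 (0.041), 2900026A02Rik and Nek8. Ovol1 was closest to Fam46b (0.039), Plec and Smad3, and Ovol2 to Supt3 (0.068), Slc35d2 and Carmil2. Grhl3 was closest to Trim15 (0.070), Apol6 and Cytip, and Elf3 to S100a6 (0.10), H2-Eb2 and Pla2g7. Among the regulators themselves the closest pair was Esrp1 with Esrp2 (0.19), followed by Grhl2 with Ovol2 (0.20) and Esrp2 with Grhl2 (0.21). All these differences are between relative profiles and say nothing of the levels.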

How the data were processed

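Poly(A)-selected RNA of 6 libraries (3 KD, 3 NC) was sequenced, per the labels' protocols. The authors deposited 1 table with raw read counts per gene, a signal column with their mean of normalized counts, a log2 fold change and an unadjusted p-value, per the file headers. The submitters' processing notes name HTSeq 0.6.0, HISAT2 2.1.0, DESeq, DESeq2, TopHat2, Bowtie2 2.2.3 and the build GRCm38, without roles. For the annotation release and the strand setting: not given in the sources used here.

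Here all genes were fitted with edgeR 4.0.16 (R 4.3.3; TMM, default low-count filter, quasi-likelihood test, two-sided, no covariate) and adjusted by Benjamini-Hochberg over 18444 genes. CPM are TMM-normalised. Standard errors were derived from each gene's fold change and quasi-likelihood F. Levels per length used the union of exons (GENCODE M21, GRCm38). Ratios were taken after adding 0.5 to each count. DESeq2 1.42.0, limma 3.58.1 (voom), other scalings, no filter, the replicate number as a block, a mature neuron covariate and leaving out libraries were alternatives. Scripts were tested on simulated data. Symbols of 25 rows turned into dates or numbers were restored by gene ID.

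The regulators and the gene lists were chosen with earlier results of these data known. From each list up to 3 genes with the smallest p were eligible for naming, with Zeb1, Zeb2, Cdh1, Epcam, Krt8 and Fgfr2 and the 3 genes most like each regulator among those with a mean of at least 5 CPM. Slc17a6, Rtp2, Gng13, Jchain, S100a9, Cyp2g1, Reg3g, Twist1, Scgb1c1, Tubb4b, Tekt1, Ptbp1 and Celf2 were named after their values were seen.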

Additional observations from a re-analysis of the deposited data

How the results depend on the processing

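The number of regulators past the threshold was 0 under all 14 alternatives, and 6 of the 8 log2 fold changes (Esrp2, Grhl2, Grhl3, Ovol1, Ovol2, Elf3) kept their sign in all of them. That of Esrp1 ran from -0.056 to 0.20 when single libraries were left out, was 0.26 with KD-2 and NC-1 both left out, and was -0.095 with library totals in place of TMM, where Zeb1 was -0.045. That of Grhl1 was 0.030 with the mature neuron covariate. The cause of these turns was not tested. Over all genes DESeq2 called 151 higher and 196 lower where edgeR called 0, and edgeR without both KD-2 and NC-1 called 3 higher. Zeb2 and Ehf passed in DESeq2 (adjusted p = 0.0081 and 0.026). The count of regulators without overlap ran from 2, under another scaling, to 6, with a library left out, which can only keep or raise it. That count with KD-2 and NC-1 both left out was added after seeing the data. The 4 count ratios kept their direction in all 9 alternatives each, including 1 count added in place of 0.5. Same-numbered libraries did not deviate together (correlations across genes of deviations from the group means of 0.31, 0.10 and -0.26, with KD-2 closer to NC-3 at 0.35). With the replicate number as a block 0 regulators passed, and Grhl2 had a log2 fold change of 0.49 (edgeR adjusted p = 0.34). Low counts limit Grhl3, Ovol1 and Ovol2, and 3 libraries a group limit every comparison.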
